A study of Mus musculus with 6 samples.

Results

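The serpins form a family of structurally related proteins, most of which inhibit serine proteases. Genes with a symbol beginning with Serpin in the probe annotation used here were taken, leaving out Serping1, which gave 39 genes among 18193 measured. They do not cover the whole family. They were represented by 55 probe sets, each of which names 1 gene in the platform annotation, and fell into 7 clades by the letter in the symbol: 14 genes in clade A, 18 in clade B, 1 each in clades C, D and H, and 2 each in clades F and I.

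Cancer-associated fibroblasts (CAF) were sorted from visibly dysplastic ears of male K14-HPV16 mice, in which the keratin 14 promoter drives human papillomavirus type 16 genes in basal keratinocytes, so the fibroblasts themselves need not express the transgene. Normal dermal fibroblasts (NDF) were sorted from normal ears of male non-transgenic FVB/n mice. Both groups were 4 months old, were sorted for the surface receptor PDGFRα and had 3 arrays each, with 15 mice named per genotype. The labels call the 3 arrays of a group biological repetitions but do not tell whether each was a separate pool of mice, and p-values cover only the spread among these arrays.

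A typical serpin exposes a loop that a protease cuts as bait. The cut traps the protease in a covalent complex and destroys both molecules as working proteins. Clade A holds secreted plasma inhibitors, many of them made by the liver, and clade B holds intracellular inhibitors of epithelia and leukocytes. A few members have lost the inhibitory function, among them the collagen chaperone of clade H. In skin, serpins act on the proteases of leukocytes, of plasminogen activation and of epidermal shedding.

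Levels are log2 intensities summarised per probe set, and each gene is represented by its probe set with the highest mean over the 6 arrays. Differences are CAF minus NDF in log2 units, from limma with Benjamini-Hochberg adjustment over all 18193 genes and a threshold of 0.05. Low levels are compressed on this scale, and the median probe set was at 4.84, so differences of genes below that level are understated. The median level per array lay between 4.73 and 4.87. CAF replicate 3 stood furthest from its own group, with a mean correlation across genes of 0.935 with the other CAF arrays, where the remaining 5 arrays had 0.959 to 0.986 with their own groups. The sort marker Pdgfra was at 12.54 ± 0.11 in CAF and 12.46 ± 0.15 in NDF (SD, n = 3 each), and the 95% interval of the difference ran from -0.34 to 0.50 (adjusted p = 0.957).

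Few serpin genes were higher in fibroblasts from dysplastic skin, and most of the 39 genes lay near the lower end of the scale on every array. Serpina3n alone rose by the test over all genes, 1 of 39, where 0.517% of all genes passed in either direction, and 0.489% as higher. No serpin passed as lower, where 0.0275% of all genes did. At a nominal p below 0.05, 7 serpin genes were higher and 1 was lower. That is 17.9% and 2.56% of the 39 genes, against 4.93% higher and 4.02% lower among all genes (8.95% in either direction). All CAF arrays lay above all NDF arrays for 8 serpins and below them for 2, or 20.5% and 5.13%, where 6.78% and 8.66% of all genes did. The median difference was 0.05 over the 39 serpins and -0.04 over all genes. The 7 higher genes belonged to clade A (Serpina3n and Serpina1b) and clade B (Serpinb2, Serpinb3a, Serpinb5, Serpinb6b and Serpinb9), and the lower one was Serpinh1. Without CAF replicate 3 the same 8 genes and Serpinb1a were under a nominal p of 0.05.

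**Figure D1:**
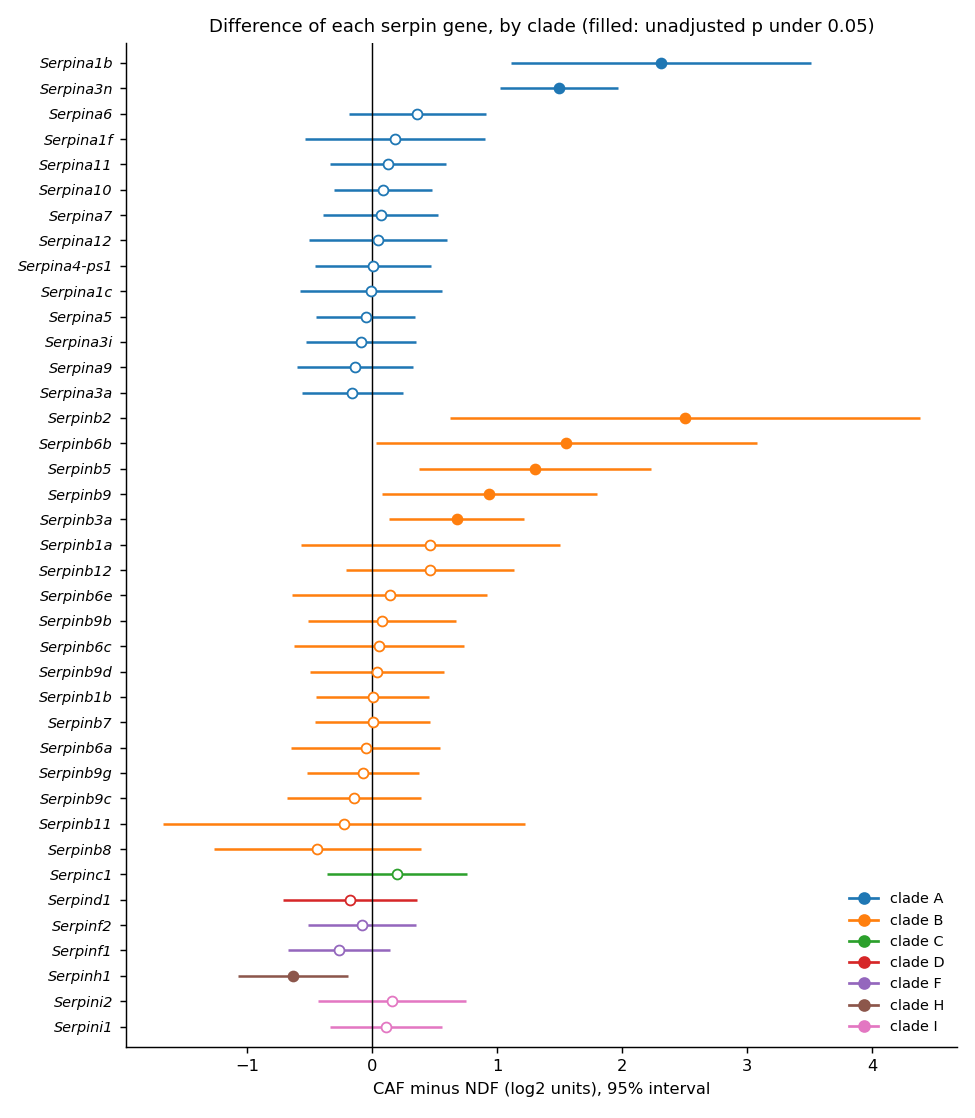
Difference between CAF and NDF for each of the 39 serpin genes, in log2 units on the horizontal axis, with the 95% interval as a bar and genes ordered by clade down the page. Filled points have a nominal p below 0.05. The 7 filled points to the right of 0 belong to clades A and B, and the 1 to the left is Serpinh1.

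Serpina3n encodes a secreted protease inhibitor that in the mouse acts on granzyme B and on leukocyte elastase, and it is a known acute phase gene. It was at 10.79, 10.69 and 10.50 on CAF arrays 1 to 3, against 8.91, 9.22 and 9.37 on NDF arrays 1 to 3. All CAF arrays were more than 1 log2 unit above the highest NDF array, and the CAF arrays stayed close together. The mean was 10.66 ± 0.15 in CAF and 9.17 ± 0.24 in NDF (SD, n = 3 each), a rise of 1.49 ± 0.20 (SE) or 2.82-fold (adjusted p = 0.0404, 95% interval 1.02 to 1.97). Unlike several clade B genes below, its 3 CAF values did not single out CAF replicate 3. The difference lay between 1.36 and 1.60 whichever array was left out. The adjusted p was 0.0325 without CAF replicate 3, 0.105 and 0.107 without CAF replicate 1 or 2, and 0.151, 0.184 and 0.166 without NDF replicate 1, 2 or 3. At a nominal p below 0.05, 13 of 20 macrophage and dendritic cell markers were higher on the same CAF arrays. So were 8 of 13 neutrophil markers, against 4.93% of all genes. The part of such cells in the Serpina3n difference was not tested. In sorted bulk samples, more cells of a type and more RNA per cell cannot be told apart.

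The promoter of Serpina3n is shown because this gene alone passed the test over all genes and because the title of the series concerns the transcription factor NF-κB. It comes from RefSeq on build GRCm38.p6 and runs from 250 bases before to 50 bases after the gene's start (chr12:104406458-104406757, plus strand). Capitals mark the match to the NF-κB-type motif GGNNTTTCC, searched on both strands, which begins 170 bases before the start.
Serpina3n: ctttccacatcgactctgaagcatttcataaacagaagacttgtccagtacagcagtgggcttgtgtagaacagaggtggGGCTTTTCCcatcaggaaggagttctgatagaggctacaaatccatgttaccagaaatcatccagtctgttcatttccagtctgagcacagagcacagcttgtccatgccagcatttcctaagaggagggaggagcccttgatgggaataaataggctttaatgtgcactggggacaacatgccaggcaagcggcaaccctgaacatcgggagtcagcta
The same motif occurred in 5.82% of 32851 promoters of this length, and of the 34 measured serpins with a listed promoter it also occurred in Serpina3i, Serpinb12 and Serpini2, none of which differed at a nominal p below 0.05. Serpina3i was at 3.04 to 3.40 in CAF and 3.15 to 3.41 in NDF, close to the floor in both groups. The match is a description of the sequence, and binding was not measured.

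Serpina1b encodes α1-antitrypsin, the main plasma inhibitor of neutrophil elastase, which is present in the mouse as a group of nearly identical gene copies. It was at 5.97, 7.21 and 5.35 on CAF arrays 1 to 3, against 4.47, 3.50 and 3.62 on NDF arrays 1 to 3. Every CAF value was above every NDF value, with CAF replicate 2 the highest. The means were 6.18 ± 0.95 in CAF and 3.86 ± 0.52 in NDF (SD, n = 3 each), a difference of 2.31 ± 0.50 (SE) that did not pass the test (adjusted p = 0.154). With array quality weights, which give CAF replicate 3 the lowest weight, the adjusted p was 0.0193. Serpina1b passed under no other alternative that measured it. The adjusted p was 0.0633 without CAF replicate 3, and up to 0.54 with another single array left out. The other probe set of Serpina1b differed by 2.08, and its groups did not overlap either. Both probe sets carry a suffix that marks matches to more than 1 transcript, so the copy behind the signal is uncertain. A further probe set that names Serpina1e, Serpina1c and Serpina1b together lay between 2.48 and 2.98 on all 6 arrays, and one that names Serpina1d and Serpina1a between 2.49 and 3.09. Serpina1c, measured by a probe set of its own, was at 2.70 ± 0.24 in CAF and 2.71 ± 0.33 in NDF.

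The Serpina1b promoter is shown because it shares a motif with genes of clade B described below. Capitals mark the AP-1 motif TGANTCA, the binding sequence of Fos and Jun proteins (chr12:103738140-103738439, minus strand, GRCm38.p6).
Serpina1b: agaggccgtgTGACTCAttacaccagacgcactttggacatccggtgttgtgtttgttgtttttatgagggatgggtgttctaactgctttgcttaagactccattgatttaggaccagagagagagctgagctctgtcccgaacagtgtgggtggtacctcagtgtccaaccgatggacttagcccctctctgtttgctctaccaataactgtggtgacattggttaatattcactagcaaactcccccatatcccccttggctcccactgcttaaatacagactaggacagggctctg
The motif also occurred in the promoter of Serpina1c, which lay near the floor in both groups. The 12 other clade A genes lay between 2.45 and 3.95 on every array, below the median probe set, and their groups all overlapped. They include Serpina6 and Serpina7, which carry steroid and thyroid hormones in plasma, and Serpina3a and Serpina3i, relatives of Serpina3n. The differences of these 12 genes ranged from -0.16 to 0.36.

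**Figure D2:**
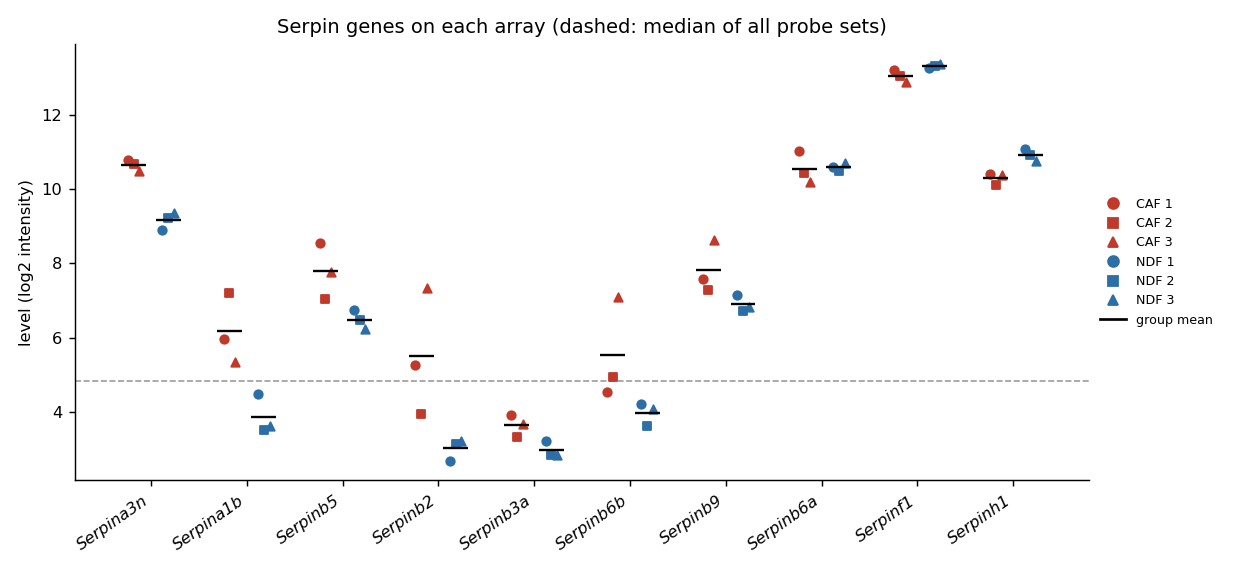
Levels of 10 serpin genes in log2 intensity on each CAF array (red) and NDF array (blue), with the group mean as a black line and the marker shape giving the replicate. The dashed line is the median of all probe sets at 4.84. The 3 CAF values of Serpina3n sit together above all NDF values, whereas Serpinb2 and Serpinb6b spread widely in CAF, with CAF replicate 3 on top.

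In clade B, Serpinb5, Serpinb2 and Serpinb3a had higher values in CAF than in NDF, without passing the test over all genes. Serpinb7, Serpinb11 and Serpinb12, which lie in the same gene cluster, differed by 0.0040, -0.22 and 0.46 (adjusted p = 0.998, 0.968 and 0.751). Serpinb5 encodes maspin, an epithelial serpin without protease inhibition. It was at 8.56, 7.03 and 7.77 on CAF arrays 1 to 3, against 6.74, 6.48 and 6.22 on NDF arrays 1 to 3. The groups did not overlap, although CAF replicate 2 came close to NDF replicate 1. The difference was 1.31 ± 0.39 (SE, adjusted p = 0.333), and it was 1.92, 1.76 and 1.36 for its 3 other probe sets, which did not overlap between the groups either. All but the probe set at 1.36 carry a suffix that marks more than 1 transcript. All 4 probe sets had CAF replicate 2 as the lowest CAF array.

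Serpinb2 encodes plasminogen activator inhibitor type 2, an inhibitor of urokinase that is induced in activated macrophages and keratinocytes. It was at 5.27, 3.93 and 7.35 on CAF arrays 1 to 3, against 2.68, 3.14 and 3.22 on NDF arrays 1 to 3. Each CAF value was above every NDF value, but the CAF arrays differed among themselves by more than 3 log2 units. The difference was 2.50 ± 0.79 (SE, adjusted p = 0.37), and 1.59 without CAF replicate 3 (adjusted p = 0.18). Serpinb3a, a relative of the human squamous cell carcinoma antigens, was at 3.91, 3.31 and 3.68 in CAF, against 3.21, 2.84 and 2.83 in NDF. These groups did not overlap, but every value lay under the median probe set. The difference of 0.68 ± 0.23 (SE) did not pass (adjusted p = 0.417). The only probe set of Serpinb3a carries a suffix that marks matches to more than 1 transcript, so the gene behind the signal is uncertain.

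The keratinocyte marker list was also higher in CAF. Its mean level over 22 genes was 9.64, 8.49 and 9.45 on CAF arrays 1 to 3, against 7.27, 7.13 and 7.25 on NDF arrays 1 to 3. Of the 22 genes, 15 were higher and none lower at a nominal p below 0.05, where 4.93% and 4.02% of all genes were. CAF replicate 2 was the lowest CAF array for this list, as it was for Serpinb5, Serpinb2 and Serpinb3a. The highest CAF array was CAF replicate 1 for the list and CAF replicate 3 for Serpinb2. The log2 scale has no zero, and the part of keratinocyte RNA in these differences was not tested.

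**Figure D3:**
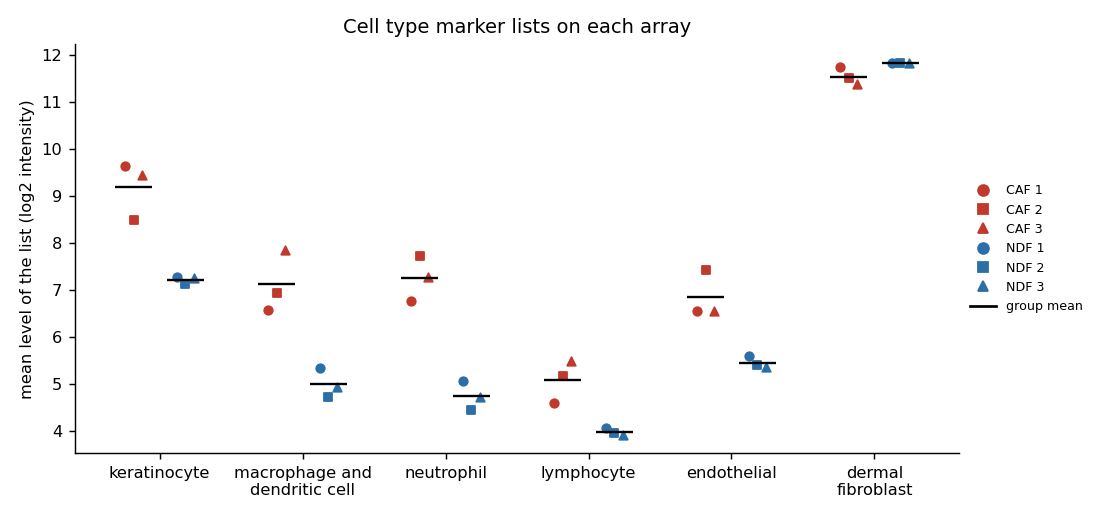
Mean level of each cell type marker list in log2 intensity, by array, with CAF in red to the left of NDF in blue and the group mean as a black line. The keratinocyte list is lowest in CAF replicate 2 among the CAF arrays, and the macrophage and lymphocyte lists are highest in CAF replicate 3.

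Serpinb6b and Serpinb9 are direct neighbours among the protein-coding genes of mouse chromosome 13 in the RefSeq annotation of GRCm38.p6. Serpinb9 encodes an intracellular inhibitor of granzyme B in cytotoxic lymphocytes and dendritic cells, and Serpinb6b is known in the mouse as an inhibitor of granzyme A. Serpinb6b was at 4.54, 4.94 and 7.09 on CAF arrays 1 to 3, against 4.20, 3.62 and 4.08 on NDF arrays 1 to 3. Serpinb9 was at 7.59, 7.29 and 8.63 in CAF, against 7.15, 6.72 and 6.83 in NDF. For both genes the groups did not overlap and CAF replicate 3 was clearly the highest array. The difference of Serpinb6b was 1.55 ± 0.64 (SE, adjusted p = 0.549), and 0.77 without CAF replicate 3. That of Serpinb9 was 0.94 ± 0.36 (SE, adjusted p = 0.506), and 0.54 without CAF replicate 3, while its other probe set differed by 0.05 with overlapping groups. The macrophage and dendritic cell list was also highest in CAF replicate 3, at 6.56, 6.94 and 7.85 on CAF arrays 1 to 3, against 5.35, 4.73 and 4.93 in NDF. The lymphocyte list was at 4.59, 5.18 and 5.48 in CAF, against 4.06, 3.95 and 3.92 in NDF. Of its 14 genes 5 were higher at a nominal p below 0.05, where 4.93% of all genes were. The part of leukocyte RNA in these 2 serpins was not tested.

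Serpinb6a, an intracellular inhibitor of cathepsin G found in many cell types, was at 11.02, 10.44 and 10.19 in CAF, against 10.60, 10.48 and 10.71 in NDF. The groups overlapped fully. The difference was -0.05, its 95% interval ran from -0.65 to 0.55 (adjusted p = 0.983), and its sign depended on the normalisation and on the array left out. Serpinb1a, which protects leukocytes from their own elastase and cathepsin G, was at 7.43, 7.68 and 6.13 in CAF, against 6.71, 6.19 and 6.95 in NDF. CAF replicate 3 was below all NDF arrays for this gene while the other CAF arrays were above them. Serpinb8, an inhibitor of furin in human cells, was at 6.57, 6.41 and 5.45 in CAF, against 6.40, 6.35 and 6.99 in NDF. Its other probe set was below all NDF arrays in CAF and differed by -1.53, again with CAF replicate 3 furthest away. Serpinb1a and Serpinb8 were singled out after their values were seen. The other 10 clade B genes had nominal p values above 0.05. The groups of Serpinb12 alone among them did not overlap, at 3.24 to 4.21 in CAF and 3.06 to 3.20 in NDF. The other probe set of Serpinb12 differed by -0.0034 with overlapping groups.

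**Figure D4:**
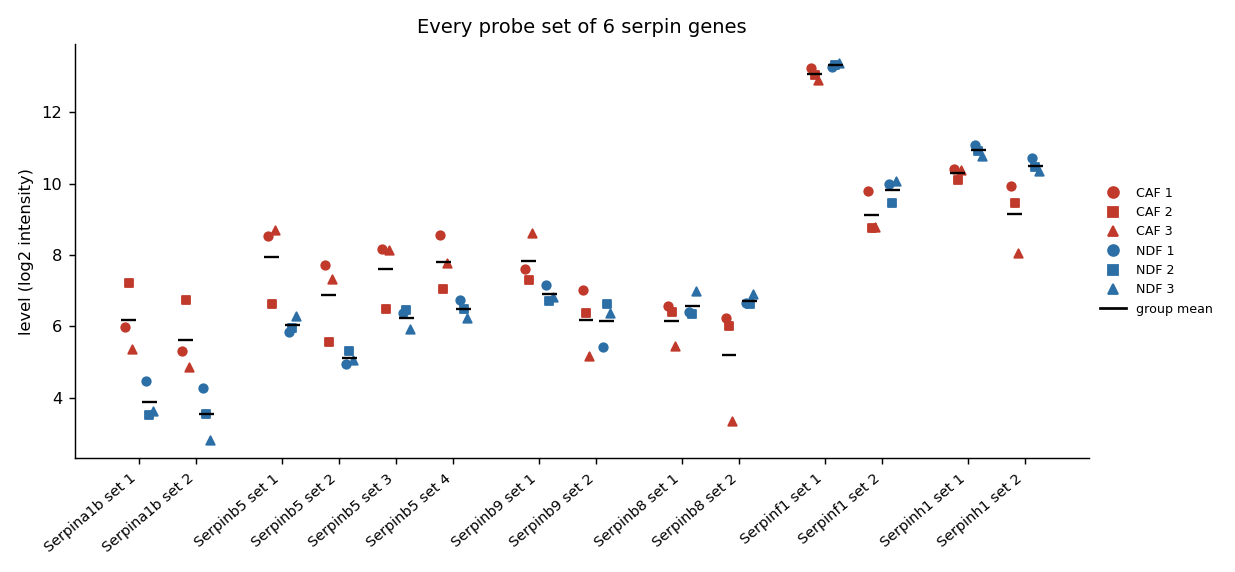
Levels of every probe set of 6 serpin genes in log2 intensity, by array, with CAF in red to the left of NDF in blue, the group mean as a black line and the sets of a gene ordered by their difference. The 4 Serpinb5 sets all have higher CAF means, the 2 Serpinb9 sets disagree, and both Serpinh1 sets are lower in CAF.

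The measured clade B genes lie in a pair of clusters, 7 on chromosome 1 and 11 on chromosome 13. On chromosome 1, 3 of 7 were higher at a nominal p below 0.05 and the median difference was 0.46, the value of Serpinb12. On chromosome 13, 2 of 11 were higher and the median was 0.05. A difference between the clusters was not tested. The AP-1 motif TGANTCA occurred in the promoters of 6 of the 7 genes on chromosome 1, in none of the 10 promoters listed for the genes on chromosome 13, and in 7.81% of all promoters. Neighbouring serpins arose by duplication, so their promoters are not independent. Of these 6 genes, Serpinb2 and Serpinb5 were higher at a nominal p below 0.05, and Serpinb7, Serpinb8, Serpinb11 and Serpinb12 were not. Serpinb3a, the measured gene of the chromosome 1 cluster without the motif, was also higher at a nominal p below 0.05. The motif was thus present with and without a difference, and a difference was present without the motif. The promoters of Serpinb5 (chr1:106860925-106861224, plus strand) and Serpinb2 (chr1:107511173-107511472, plus strand, the first of 2 starts listed) are shown from RefSeq, GRCm38.p6, with the AP-1 match in capitals, since these genes had the larger differences of the cluster.
Serpinb5: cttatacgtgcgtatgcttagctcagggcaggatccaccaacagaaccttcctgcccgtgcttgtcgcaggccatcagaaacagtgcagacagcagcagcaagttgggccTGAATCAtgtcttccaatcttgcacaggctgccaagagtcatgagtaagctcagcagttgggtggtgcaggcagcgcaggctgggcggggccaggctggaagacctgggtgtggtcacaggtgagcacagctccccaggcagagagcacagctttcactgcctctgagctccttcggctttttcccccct
Serpinb2: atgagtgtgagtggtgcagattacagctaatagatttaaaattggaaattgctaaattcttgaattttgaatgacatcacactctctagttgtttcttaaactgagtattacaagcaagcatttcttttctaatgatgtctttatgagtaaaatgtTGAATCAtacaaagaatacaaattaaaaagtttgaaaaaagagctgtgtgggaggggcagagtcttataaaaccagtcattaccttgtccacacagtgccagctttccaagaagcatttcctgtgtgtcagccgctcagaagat
The match began 140 bases before the start in Serpinb5 and 94 bases before it in Serpinb2. Of 15 listed immediate-early genes, some of which are AP-1 genes, 12 were higher in CAF at a nominal p below 0.05. Among all genes 4.93% were. The count is for the whole list and does not give its AP-1 genes apart. AP-1 binding was not measured, and the part of AP-1 in the differences of Serpinb2 and Serpinb5 was not tested. The Serpinb2 promoter also held a TATAAA box 29 bases before the start, a sequence found in 13.6% of all promoters.

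Of the serpins without protease inhibition that fibroblasts make, Serpinh1 was lower in CAF without passing the test. It encodes Hsp47, the chaperone of the endoplasmic reticulum that procollagen needs to fold. It was at 10.40, 10.11 and 10.38 on CAF arrays 1 to 3, against 11.09, 10.92 and 10.77 on NDF arrays 1 to 3. All CAF values were below all NDF values. The difference was -0.63 ± 0.19 (SE, adjusted p = 0.322), and -1.36 for its other probe set, whose groups did not overlap and in which CAF replicate 3 was the lowest array at 8.06. Both probe sets have suffixes that mark more than 1 transcript. Serpinf1 encodes pigment epithelium-derived factor, a secreted inhibitor of vessel growth. It was at 13.23, 13.04 and 12.91 in CAF, against 13.27, 13.32 and 13.38 in NDF. The CAF values were all below the NDF values, but by little, with a difference of -0.27 ± 0.17 (SE, adjusted p = 0.777). Its other probe set differed by -0.72 with overlapping groups.

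The folding partners of Serpinh1 in the endoplasmic reticulum had a median difference of -0.28 over 20 measured genes. None passed limma's test, and 6 were lower and none higher at a nominal p below 0.05. On all CAF arrays 8 lay below the NDF arrays and 1 above them, where 8.66% and 6.78% of all genes did. The lysyl hydroxylase Plod1 was at 7.76 ± 0.32 in CAF and 8.64 ± 0.12 in NDF (adjusted p = 0.216), the prolyl isomerase Fkbp14 at 8.95 ± 0.52 in CAF and 10.07 ± 0.32 in NDF (adjusted p = 0.285), and the prolyl hydroxylase family member P3h3 at 8.02 ± 0.37 in CAF and 8.84 ± 0.18 in NDF (adjusted p = 0.325, SD, n = 3 each throughout). The dermal fibroblast marker list lay at 11.38 to 11.74 in CAF and 11.82 to 11.84 in NDF, with the same median of -0.28. Of its 19 genes 6 were lower and 1, Pi16, was higher at a nominal p below 0.05. Over all genes 4.02% were lower and 4.93% higher at that p. The part of a smaller fibroblast share in the Serpinh1 difference was not tested.

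The serpins of coagulation and of the nervous system had low values in both groups. Antithrombin (Serpinc1), heparin cofactor II (Serpind1), α2-antiplasmin (Serpinf2), the protein Z-dependent inhibitor (Serpina10) and the protein C inhibitor (Serpina5) lay between 3.05 and 4.52 on all arrays. Their differences ranged from -0.18 to 0.20, and every group pair overlapped. Neuroserpin (Serpini1), an inhibitor of tissue plasminogen activator in neurons, and its relative Serpini2 differed by 0.11 and 0.16 (adjusted p = 0.944 and 0.933). In all, 25 of the 39 serpins were under the median probe set on every array, and 10 had a mean over all arrays at or above it. At such levels differences are compressed, and absence of a transcript is not shown.

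Genes that serpins act on were set beside the family. Of 27 genes of plasminogen activation and coagulation, 1 rose, 5 were higher and none lower at a nominal p below 0.05, and the median difference was 0.06. Over all genes, 0.489% rose, and 4.93% were higher and 4.02% lower at that nominal p. The coagulation factor V gene F5 rose, at 10.50 ± 0.37 in CAF and 7.46 ± 0.61 in NDF (adjusted p = 0.0252). The urokinase receptor gene Plaur differed by 0.95 (adjusted p = 0.265) and F13a1, the transglutaminase subunit that stabilises fibrin and is also made by macrophages, by 1.97 (adjusted p = 0.281). Of 16 leukocyte serine proteases and granzymes none passed by limma, with 2 higher at a nominal p below 0.05, with a median of 0.13. The basophil protease Mcpt8 was at 6.62 ± 0.91 in CAF and 4.03 ± 0.27 in NDF (adjusted p = 0.0847), the mast cell tryptase Tpsab1 differed by 0.89 (adjusted p = 0.459) and granzyme B (Gzmb), the target of Serpinb9, by 0.48 (adjusted p = 0.665).

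Of 15 epidermal serine proteases 1 rose and 2 were higher at a nominal p below 0.05, with a median of 0.38. Over all genes these shares were 0.489% and 4.93%. The kallikrein Klk13 rose and was at 8.03, 6.68 and 9.24 on CAF arrays 1 to 3, against 3.53, 3.00 and 3.14 on NDF arrays 1 to 3 (adjusted p = 0.0333), with CAF replicate 2 again the lowest CAF array. The membrane protease Tmprss13 and the kallikrein Klk10 differed by 2.09 and 1.03 (adjusted p = 0.409 and 0.57). Of 23 genes outside the serpin family that were listed as inhibitors of serine proteases 1 rose, with a median of -0.07. At a nominal p below 0.05, 3 were higher (Slpi, Pi15 and Pi16) and 1 was lower. The elastase inhibitor Slpi rose and was at 9.64 ± 0.48 in CAF and 6.47 ± 0.57 in NDF (adjusted p = 0.0252), while Pi15 and Pi16, secreted proteins of another inhibitor-named family, differed by 1.35 and 1.00 (adjusted p = 0.0644 and 0.153).

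Markers of other cell types differed on these arrays beside the lists above. The neutrophil list lay at 6.76 to 7.73 in CAF and 4.44 to 5.07 in NDF, and the endothelial list at 6.54 to 7.42 in CAF and 5.36 to 5.59 in NDF, with 12 of 15 genes higher at a nominal p below 0.05. The mast cell list lay at 4.79 to 6.24 in CAF and 4.33 to 4.69 in NDF, with 4 of 10 higher, and the melanocyte and Schwann cell list and the adipocyte and muscle list had 1 of 9 and 1 of 10 higher. The cartilage list was lower, at 8.87 to 9.46 in CAF and 9.80 to 10.19 in NDF, with 6 of 10 genes lower. Over all genes 4.93% were higher and 4.02% lower at a nominal p below 0.05. CAF replicate 2, the highest array for Serpina1b, was also the highest for the endothelial, mast cell and neutrophil lists, and their part in that difference was not tested.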

How the data were processed

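RNA of sorted fibroblasts went through 1 amplification with WT-Ovation reagents, was labelled with biotin and was hybridised to Affymetrix mouse arrays, per the labels' protocols. The authors' deposited values are log2 intensities. GCOS and RMA are named in the submitters' processing notes, with versions and genome build not given in the sources used here. RMA equalises the arrays, which removes differences in total intensity, and the number of arrays limits the precision.

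Of 45101 probe sets, 64 are controls, 34945 name 1 gene, 932 name several and 9160 are unnamed here. The 3 probe sets that name several serpins stayed outside the tests. Clade E genes are not reported here. Of 39 serpin genes, 12 had several probe sets. The comparison of CAF with NDF used limma 3.58.1 (lmFit, eBayes) in R 4.3.3 on all 18193 genes with group as the only term, two-sided, and tested on simulated data. Figures used matplotlib 3.10.9 in Python 3.11.15. The repetition numbers were not used to pair the samples in the main fit. Alternatives covered normalisation, filtering, probe set choice, variance, weights and single arrays.

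The members, gene lists and motifs were chosen with earlier results of these data known. Array values are given for serpins with a nominal p below 0.05 or a mean at or above the 75th percentile of all genes, and for a few set by name. From each pathway list, genes past the threshold, or up to 3 with the smallest p, are named. Motifs of NF-κB, AP-1, STAT, C/EBP, CRE, heat shock and TATA type were searched in RefSeq promoters. A form of the NF-κB-type motif with 1 more base was searched first; the Serpina3n promoter matched both, and the shorter form, found in more promoters, is reported.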

Additional observations from a re-analysis of the deposited data

How the results depend on the processing

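The serpin result rests on 1 call that is close to the threshold. Against 1 serpin gene and 94 genes in all, array quality weights called 2 serpins and 438 genes, an intensity trend 1 serpin and 155 genes, and leaving out single arrays 0 to 1 serpins and 5 to 156 genes. When every probe set was tested on its own, 0 serpins were called by limma, 8 had a nominal p below 0.05, and the adjusted p of Serpina3n was 0.0586. With the repetition number as a replicate block, 0 serpins and 20 genes were called (adjusted p = 0.174 for Serpina3n), while the same 8 serpins kept a nominal p below 0.05. Same-numbered samples had correlations of -0.153, 0.108 and -0.0132 between their deviations from the group means. Those of differently numbered samples lay between -0.107 and 0.116. The labels do not tell whether same-numbered samples share a batch, and 3 arrays per group are too few to decide it.

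The 8 serpins at a nominal p below 0.05 became 5 with a filter at the median probe set. They also became 5 without the probe sets whose suffix marks more than 1 transcript, be it of the same gene or of others. In both cases fewer serpins were tested. Without single arrays there were 5 to 9. The difference of Serpinb6a, near 0, turned positive with cyclic loess (0.036), with array weights (0.22), and without CAF replicate 2 (0.01), CAF replicate 3 (0.13) or NDF replicate 3 (0.01), and ranged from -0.29 to 0.13 over single arrays left out. The cause was not tested. Serpina1b, Serpina3n, Serpinb2, Serpinb3a, Serpinb5, Serpinb6b, Serpinb9, Serpinf1 and Serpinh1 kept their direction under every alternative that measured them. The alternatives also ran on the other serpins, whose differences under them are not given here. Among these, Serpinb1a was under a nominal p of 0.05 with array quality weights and without CAF replicate 3. Serpinb11 was under it without NDF replicate 1.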

Other observations

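Among the serpins with a nominal p above 0.05, single arrays held values that stood away from their group. Serpinb11, an epithelial member of the chromosome 1 cluster, was at 3.59, 3.62 and 3.33 on CAF arrays 1 to 3, against 5.26, 2.98 and 2.98 on NDF arrays 1 to 3, so that NDF replicate 1 alone was above the median probe set. Serpinb6e was at 5.58 in CAF replicate 3, against 4.37 and 4.61 on the other CAF arrays. The second probe set of Serpinb8 was at 3.35 in CAF replicate 3, against 6.23 and 6.004 on CAF arrays 1 and 2 and 6.62 to 6.89 in NDF. The second probe set of Serpinb1a was at 4.53 in CAF replicate 3, against 6.81 and 6.59 on CAF arrays 1 and 2. These genes were named after their values were seen.

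The STAT motif TTCNNNGAA, in 8.3% of all promoters, occurred in the promoters of Serpina11, Serpina1f, Serpina3i, Serpinb2, Serpinb6a and Serpinb9c, of which Serpinb2 had a nominal p below 0.05. The C/EBP-type motif TTNNGCAA, in 10.8% of all promoters, occurred in 8 of 34 serpins, among them Serpina1b and Serpinb2. The heat shock patterns GAANNTTC and TTCNNGAA occurred in 5 and 3 serpins, against 7.86% and 8.52% of all promoters. The CRE sequence TGACGTCA occurred in none of the 34, against 1.79% of all promoters.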
